A study of Homo sapiens with 24 samples.

Results

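The comparison described here set A375 cells that overexpressed the long noncoding RNA SLNCR without its triplex-forming region 5 (ΔTFR5, labelled SLNCR without TFR 5) against A375 cells that received the vector backbone control. It was chosen by its labels alone and holds 6 of the 24 libraries of the study, 3 of each group, all from batch 2. A375 is an established human melanoma cell line. Both groups were transfected with pcDNA3.1 by Lipofectamine 2000, the plasmid carried a CAG promoter and puromycin resistance, and RNA was taken after 48 h in 2 µg/mL puromycin, so transfection and selection were common to ΔTFR5 and empty vector. The SLNCR was expressed from a plasmid over the cells' own SLNCR, in a transfected population of 1 cell line. The study asked which genes are regulated through the triplex-forming regions of SLNCR. Batch 2 also held full-length SLNCR (FL) and SLNCR without region 4 (ΔTFR4), with 3 libraries each; these entered the fit for the dispersion, and ΔTFR5 was also compared with each of them. The design text calls the 3 libraries of a group biological replicates without saying that they came from separate cultures. The p-values measure only the spread between libraries within groups, estimated over all 4 groups of batch 2, including the more variable FL.

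A long noncoding RNA is a transcript that is not translated into protein, and some of them stay in the nucleus and act on other genes. A triplex forms where a single RNA strand lies in the major groove of double-stranded DNA along a stretch of purines on 1 DNA strand and pyrimidines on the other; a stretch of RNA predicted to do this is called a triplex-forming region. SLNCR is known in melanoma for its association with invasion and MMP9.

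The 12 libraries of batch 2 held between 24810226 and 33063445 estimated counts, with 27461768 to 32304543 in empty vector and 24810226 to 27699334 in ΔTFR5. Levels are given as CPM, counts scaled to the size of the library, which compare 1 gene between libraries and not different genes with each other. FL replicate 1 stood apart from the other libraries and FL replicate 3 lay close to empty vector, and the median SD of log2 CPM within a group was 0.40 in FL, 0.18 in ΔTFR5 and 0.14 in empty vector. Mitochondrial transcripts made up 1.83% to 2.68% of counts in empty vector and 2.76% to 3.37% in ΔTFR5; the part of this difference in the results was not tested. In bulk RNA, fewer cells of a kind and less RNA per cell cannot be told apart. The cells are labelled epithelial. Of the melanoma markers, SOX10 was at 68.9 to 77.9 CPM and MITF at 75.2 to 80.6 CPM in empty vector, while the pigment cell antigens PMEL and MLANA were at most at 1.15 CPM in the 6 libraries; the summed level of the 10 tested melanoma and neural crest markers was 299 to 322 CPM in empty vector and 253 to 262 CPM in ΔTFR5. The summed level of the 9 tested epithelial markers was 597 to 656 CPM in empty vector and 591 to 637 CPM in ΔTFR5, most of it from the keratins KRT8 and KRT18, while the epithelial cadherin CDH1 did not exceed 5.01 CPM. Fibroblast markers summed to 5.68 to 7.38 CPM in empty vector and 3.31 to 4.82 CPM in ΔTFR5.

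SLNCR itself checks the labels. In this table its reads fall under LINC00511 (ENSG00000227036, chr17:72290091-72640472, minus strand, GRCh38), a locus that holds both LINC00673, the symbol of SLNCR, and LINC00511 in RefSeq, so the level can include reads of the neighbour. It stood at 30.1, 29.1 and 27.9 CPM in the 3 empty vector libraries and at 321, 376 and 192 CPM in the 3 ΔTFR5 libraries. Every ΔTFR5 library was above every empty vector library, and replicate 3 was the lowest of the overexpressing libraries of this group. The log2 fold change was 3.35 ± 0.29 (SE), which is 10.2-fold, with an adjusted p of 6.42e-05 by the quasi-likelihood test of edgeR. FL libraries held 728, 658 and 334 CPM and ΔTFR4 libraries 515, 498 and 444 CPM; ΔTFR5 minus FL was -0.95 on the log2 scale (adjusted p = 0.0802) and ΔTFR5 minus ΔTFR4 was -0.71 (adjusted p = 0.411). Neither difference in SLNCR level passed the test.

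Of 18763 genes tested, 1907 passed an adjusted p of 0.05, which is 10.2%. Of these, 1028 were higher in ΔTFR5 (5.48% of tested genes) and 879 were lower (4.68%), so 53.9% of calls were rises. This share depended on the processing. It was 64.6% with upper quartile scaling, 49.7% with DESeq2 and 48% with the 2 groups alone. With the GC trend removed it was 48.7%, and 47.1% with the replicate block as well. A change of 2-fold or more was seen in 697 of them, 460 higher and 237 lower. The 3 libraries of each group did not overlap in CPM for 8375 genes, or 44.6% of those tested, and for 1897 of the 1907 called. Non-overlap was also required of the 12 largest rises and the 12 largest falls named. Where it is stated for a single gene below, it describes the values and adds no support to the call. The median log2 fold change over all tested genes was 0.02. Called genes that fell lay at higher levels than those that rose, with a median log2 CPM of 5.07 against 3.36, and 94.6% of them were protein-coding against 84.2% of the risers and 76.6% of all tested genes. Leaving out 1 library of either group brought the 1907 calls down to between 440 and 1746, the fewest without ΔTFR5 replicate 2 and the most without ΔTFR5 replicate 3. Of the 121 named genes called besides SLNCR, 74, 73 and 65 stayed called without empty vector replicate 1, 2 and 3, and 69, 54 and 111 without ΔTFR5 replicate 1, 2 and 3. Among the genes described here, CDC45, CDK2, CDC20, BUB1B, INHBE, GDF15, CHAC1, ASNS, SARS, CARS, ERN1, CALR, OASL, IFI6, ITGB4, ITGB6, ITGB8, NT5E, GABRP, KRT19, CDH1, S100A1, MIA, TYRP1 and SOX10 lost their call without at least 1 library, as did TXNIP and ARRDC4. Genes named outside the rules, such as ISG20, ITGB7, ITGA4 and those under Other observations, were not followed through the left-out libraries.

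**Figure D1:**
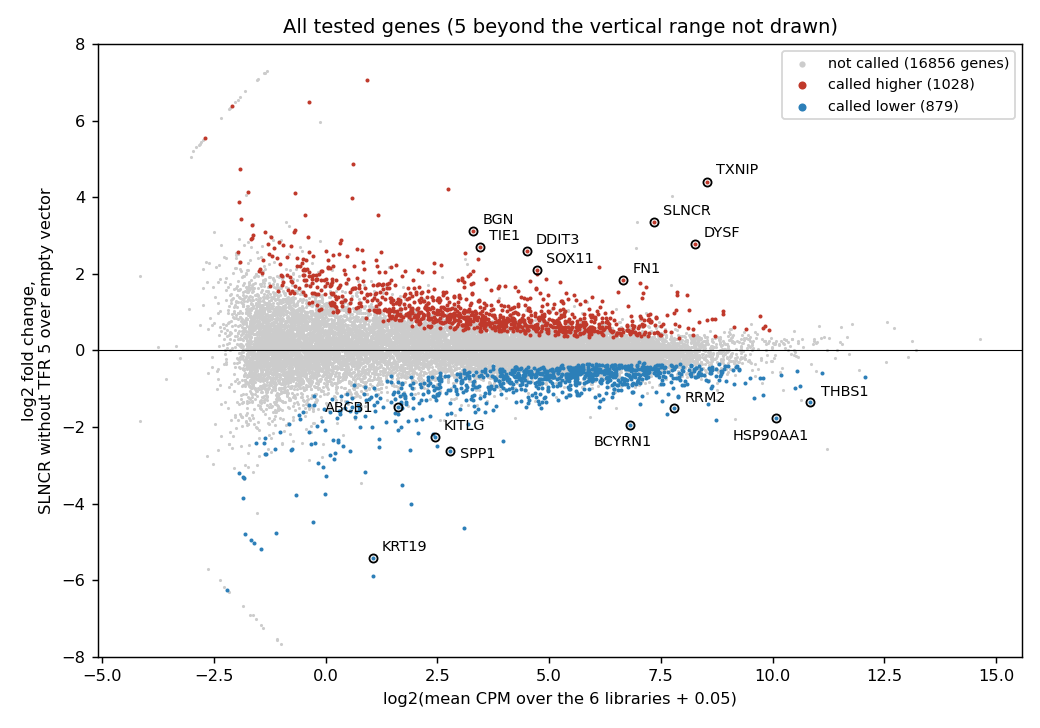
Log2 fold change of ΔTFR5 over empty vector (vertical axis) against log2 of the mean CPM over the 6 libraries plus 0.05 (horizontal axis), 1 point per tested gene, red for the 1028 genes called higher and blue for the 879 called lower. Named genes are circled: TXNIP and SLNCR lie highest among abundant genes, and THBS1 and HSP90AA1 fell at levels far above most called genes.

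TXNIP, BGN, RPS6KA2 and TIE1 rose, and their promoters are shown because they carry long runs of purines or pyrimidines, the kind of DNA on which a triplex can form. They come from the genes with the lowest adjusted p and the largest changes. Of the risers there with a RefSeq promoter, these 4 have the longest runs of A and G only or of C and T only. The runs lie in the 250 bases before the start, and the 4 genes were picked after their runs were seen. No promoter was matched for the risers OSCAR, INHBE, SOX11 and MUC6. Genes that fell carry runs too, and GABRB2, among the largest falls, has 19 pyrimidines. The sequences are from RefSeq (GRCh38.p14), written 5′ to 3′ on the strand of the gene, with the longest run in capitals. For TXNIP (chr1:145996580-145996829, minus strand) the run is 35 pyrimidines, RPS6KA2 (chr6:166862526-166862775, minus strand, within the span of the gene in GENCODE) has 21 purines and TIE1 (chr1:43300732-43300981, plus strand) has 16 pyrimidines. Of BGN (chrX:153494730-153494929, plus strand) the first 200 bases of the window are given, with a run of 26 pyrimidines.
TXNIP: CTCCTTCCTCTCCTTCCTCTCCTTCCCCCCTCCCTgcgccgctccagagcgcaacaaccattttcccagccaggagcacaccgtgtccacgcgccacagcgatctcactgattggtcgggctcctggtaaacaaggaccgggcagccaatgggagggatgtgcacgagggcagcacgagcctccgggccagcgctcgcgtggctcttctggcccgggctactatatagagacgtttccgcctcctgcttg
BGN: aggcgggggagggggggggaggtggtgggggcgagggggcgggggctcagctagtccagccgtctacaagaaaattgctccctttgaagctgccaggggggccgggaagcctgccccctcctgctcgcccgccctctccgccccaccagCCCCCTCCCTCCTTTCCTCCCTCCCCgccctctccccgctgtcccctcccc
RPS6KA2: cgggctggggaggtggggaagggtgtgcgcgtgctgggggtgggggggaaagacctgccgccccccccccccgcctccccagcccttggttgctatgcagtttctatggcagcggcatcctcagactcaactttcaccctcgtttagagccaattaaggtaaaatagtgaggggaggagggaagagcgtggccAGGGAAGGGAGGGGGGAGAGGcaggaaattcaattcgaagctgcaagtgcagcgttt
TIE1: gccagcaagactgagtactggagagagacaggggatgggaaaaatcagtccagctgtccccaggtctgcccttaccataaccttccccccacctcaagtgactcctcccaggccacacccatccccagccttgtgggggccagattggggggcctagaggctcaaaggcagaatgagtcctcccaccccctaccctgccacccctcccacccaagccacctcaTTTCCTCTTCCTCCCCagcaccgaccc
Such runs are common. A run of at least 15 bases was present in 17.4% of the 12406 tested genes with a RefSeq promoter, in 20.9% of the 731 matched risers and in 17.7% of the 701 matched genes that fell, beside 17.04% of all 27305 promoters in the table. These shares were not tested, and a run in this window is a description of its letters, not a binding site. The sequence of region 5 was not used here.

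The largest rises were in a glucose-sensing arrestin, stress response genes and genes of the cell surface and matrix. TXNIP (ENSG00000265972, chr1:145992435-145996600) encodes the thioredoxin-interacting protein, an arrestin that restrains glucose uptake. It was at 36.4, 39.5 and 24.7 CPM in empty vector and at 795, 1022 and 314 CPM in ΔTFR5. The groups did not overlap, and replicate 3 was again the lowest ΔTFR5 library. The log2 fold change was 4.40 ± 0.81 (SE, adjusted p = 0.0106), a call that was lost without empty vector replicate 3. ARRDC4, its relative among the arrestins, rose by a log2 fold change of 2.53 (adjusted p = 0.0171), a call lost without any 1 of the empty vector libraries, without ΔTFR5 replicate 2 and with no filter on low counts. OSCAR, a collagen receptor of the immunoglobulin family, rose from 1.027, 0.42 and 0.53 CPM to 11.8, 18.1 and 7.61 CPM, with a log2 fold change of 4.21 (adjusted p = 0.00247). INHBE, which encodes an inhibin beta chain and is on the list of BMP, activin and TGF-beta genes, rose by a log2 fold change of 2.38 (adjusted p = 0.0114).

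BGN encodes biglycan, a small proteoglycan of the extracellular matrix (ENSG00000182492, chrX:153494939-153509554). It was at 1.99, 2.57 and 1.55 CPM in empty vector and at 18.6, 19.3 and 14.8 CPM in ΔTFR5. All ΔTFR5 libraries lay far above all empty vector libraries, and the log2 fold change was 3.11 ± 0.23 (SE, adjusted p = 2.58e-05). TIE1, an endothelial receptor tyrosine kinase (chr1:43300993-43323108), was at 2.96, 3.14 and 2.69 CPM in empty vector and at 20.8, 20.2 and 15.8 CPM in ΔTFR5, a log2 fold change of 2.69 ± 0.21. DYSF encodes dysferlin, which takes part in membrane repair, and rose from 79.8, 80.5 and 73.8 CPM to 611, 634 and 365 CPM, a log2 fold change of 2.78 ± 0.25. SOX11, a transcription factor of neural progenitors, rose from 10.5, 10.2 and 9.16 CPM to 42.7, 48.0 and 37.2 CPM, a log2 fold change of 2.10 ± 0.17. No empty vector library reached a ΔTFR5 library in TIE1, DYSF or SOX11, as in nearly all called genes. RPS6KA2, a ribosomal S6 kinase downstream of MAP kinase, was at 16.9, 17.9 and 16.3 CPM against 60.5, 59.8 and 56.9 CPM, a log2 fold change of 1.79 ± 0.14. THSD4, a matrix protein with thrombospondin repeats, was at 128, 127 and 119 CPM against 341, 336 and 348 CPM, a log2 fold change of 1.45 ± 0.11. In BGN, TIE1, SOX11, RPS6KA2 and THSD4 the spread between the 3 libraries of a group was smaller than the distance between the groups. DYSF spread widely in ΔTFR5, from 365 to 634 CPM.

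Falls included growth factor, secreted and adhesion genes. THBS1 encodes thrombospondin 1, an abundant secreted matrix protein (ENSG00000137801, chr15:39581079-39599466). It was at 2619, 2643 and 2631 CPM in empty vector and at 1029, 940.4 and 1160 CPM in ΔTFR5. The empty vector libraries were nearly alike, the groups did not overlap, and the log2 fold change was -1.34 ± 0.12 (SE, adjusted p = 0.000135), a 2.52-fold fall. KITLG, the ligand of the receptor KIT (chr12:88492793-88580851), was at 8.56, 8.92 and 9.16 CPM against 2.47, 1.25 and 1.81 CPM, a log2 fold change of -2.27 ± 0.28 (adjusted p = 0.000902). SPP1, which encodes the secreted phosphoprotein osteopontin, was at 10.1, 11.4 and 13.5 CPM against 1.15, 1.89 and 2.60 CPM, a log2 fold change of -2.63 ± 0.46. In KITLG and SPP1 every ΔTFR5 library lay below every empty vector library, which was a condition of their naming. BCYRN1, a short noncoding RNA of Alu origin transcribed by RNA polymerase III (chr2:47335315-47335514), was at 162, 173 and 199 CPM against 44.8, 46.4 and 48.3 CPM, a log2 fold change of -1.94 ± 0.20 (adjusted p = 0.000359). Its reads can be shared with other Alu copies, so its level is uncertain. SSX2, a cancer-testis antigen gene with near-identical copies, was at 24.8, 26.2 and 27.3 CPM against 7.16, 4.49 and 3.54 CPM; the copies make this value uncertain too.

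**Figure D2:**
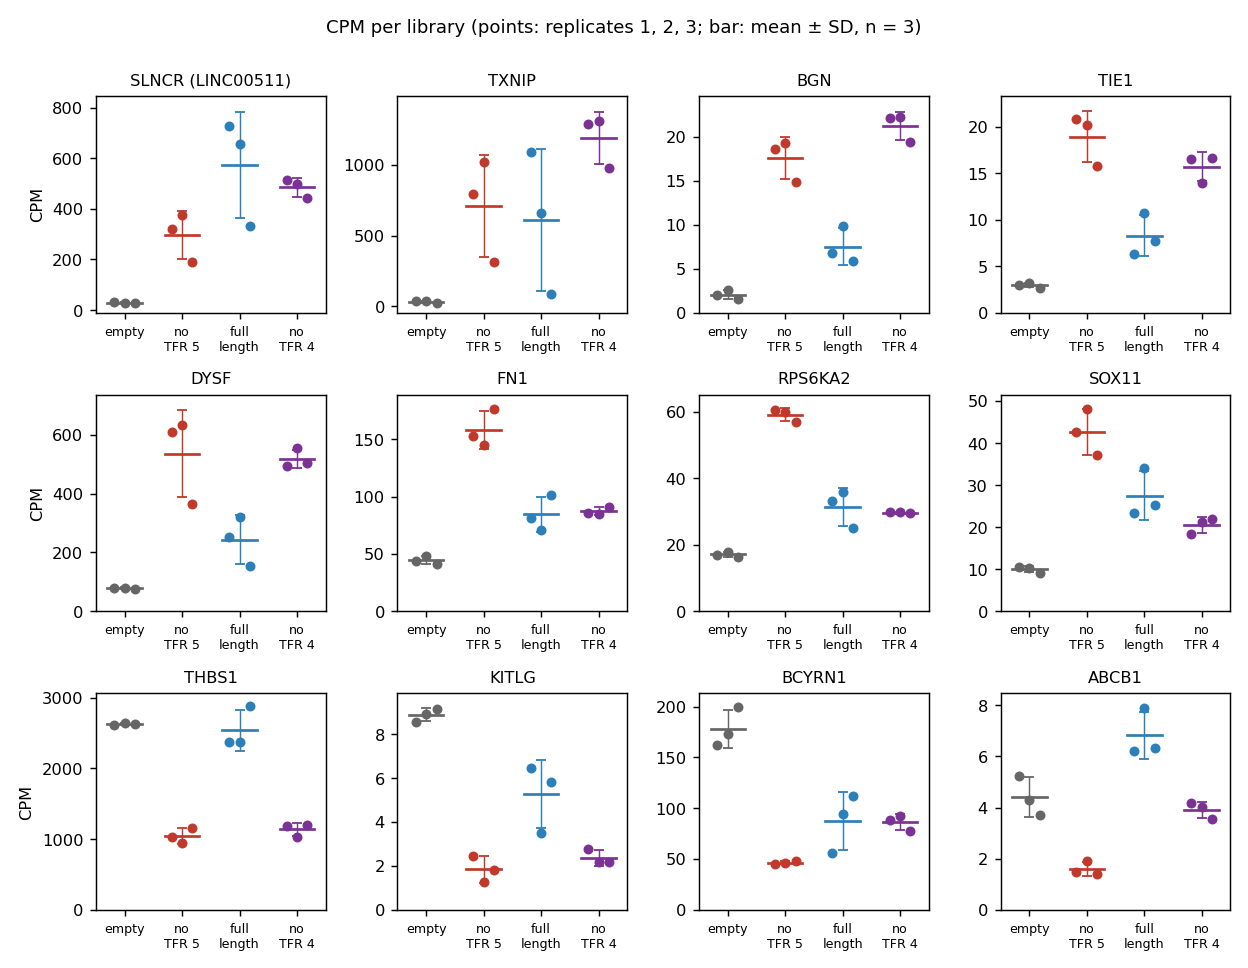
CPM of 12 genes in each library of batch 2, 1 point per replicate, with the mean and SD (n = 3) as bars, for empty vector, ΔTFR5, full-length SLNCR and ΔTFR4. FN1, RPS6KA2 and SOX11 are highest in ΔTFR5, ABCB1 is lowest in it, and for THBS1 the 6 libraries of the deletions lie below all 6 libraries of empty vector and full-length SLNCR.

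Many genes of DNA replication and cell division fell in ΔTFR5. Of the 28 tested genes of the DNA replication and S phase list, 17 fell and 0 rose, with a median log2 fold change of -0.86. The shares over all tested genes were 4.68% lower and 5.48% higher. RRM2, the regulated subunit of the ribonucleotide reductase that supplies deoxynucleotides (chr2:10120698-10131419), was at 335, 317 and 336 CPM in empty vector and at 96.4, 81.2 and 172 CPM in ΔTFR5. The groups did not overlap, ΔTFR5 replicate 3 was closest to empty vector, and the log2 fold change was -1.50 ± 0.24 (SE, adjusted p = 0.00347). CDC45, a part of the replicative helicase, fell by 0.92 on the log2 scale. CDK2, the S phase kinase, is on the list of the melanocyte lineage and not on this one, and fell by 0.89. Of the 28 genes of the G2 and mitosis list, 14 fell and 0 rose, with a median of -0.70. CDC20, the activator of the anaphase-promoting complex, fell by 1.31 on the log2 scale, and the checkpoint kinase gene BUB1B by 0.74. At an unadjusted p under 0.05, 23 S phase and 26 mitosis genes were lower and 0 of either list were higher, beside 12.5% of all tested genes lower and 13.9% higher. DESeq2 called 20 and 23 lower and 0 higher, beside 7.92% and 7.81% of all tested genes, and limma voom called 27 and 28 lower and 0 higher, beside 23.1% and 24.1%. By library, the median difference of the S phase list from the mean of empty vector was -0.90, -1.01 and -0.61 in ΔTFR5 replicates 1, 2 and 3. The median of the mitosis list was -0.84, -1.03 and -0.29 in the same libraries. Replicate 3 was thus the nearest to empty vector for both. The number of S phase genes that fell went from 17 to 11 without ΔTFR5 replicate 3 and to between 1 and 3 without any other single library of the 6. The mitosis count went to 27 without ΔTFR5 replicate 3 and to between 0 and 2 without any of the others. Calls fell over all genes too. Without ΔTFR5 replicate 3, 814 of 19483 tested genes were called lower. Without any of the others the number lay between 136 of 19394 and 275 of 19328.

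Many genes of the integrated stress response rose in ΔTFR5. This pathway slows translation and raises a set of transcripts through the transcription factor ATF4. Of 25 tested members, 12 rose and 0 fell, with a median log2 fold change of 0.85, beside 5.48% of all tested genes higher and 4.68% lower. DDIT3, the stress-induced transcription factor CHOP (chr12:57516588-57521737), was at 6.97, 6.35 and 5.94 CPM in empty vector and at 39.7, 56.8 and 19.2 CPM in ΔTFR5. Every ΔTFR5 library was higher, and the log2 fold change was 2.59 ± 0.47 (SE, adjusted p = 0.00666). GDF15, a secreted stress cytokine, rose by a log2 fold change of 2.00, CHAC1, which breaks down glutathione, by 1.22, and ASNS, the asparagine synthetase, by 1.05. At an unadjusted p under 0.05, 19 members were higher and 0 lower, beside the 13.9% and 12.5% of all tested genes. DESeq2 called 14 higher and 0 lower, beside 7.81% and 7.92% of all tested genes. With limma voom 22 were called higher and 1 lower, beside 24.1% and 23.1%. ATF4 itself had a log2 fold change of 0.17 (adjusted p = 0.407). Of 20 cytosolic aminoacyl-tRNA synthetases, which charge tRNAs with amino acids, 5 rose and 1 fell; SARS rose by 0.98 on the log2 scale and CARS by 0.67. Of 19 unfolded protein response genes, 3 rose and 1 fell. ERN1, the stress sensor IRE1, rose by a log2 fold change of 1.82, while CALR, a chaperone of the endoplasmic reticulum, fell by 0.71. The count of stress response genes that rose lay between 1 and 10 when any single library of the 6 was left out. It was lowest without empty vector replicate 3 and without ΔTFR5 replicate 2. In the same fits the genes called higher lay between 299 of 19519 tested and 932 of 19483.

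Chaperone, antioxidant, sterol and interferon genes were among those that fell. Over all tested genes, 4.68% were called lower and 5.48% higher, beside which the counts of each list here stand. Of 18 cytosolic heat shock genes, 8 fell and 0 rose, with a median of -0.82. HSP90AA1, the inducible HSP90 chaperone (chr14:102080738-102139699), was at 1662, 1611 and 1716 CPM in empty vector and at 419, 369 and 674 CPM in ΔTFR5. It lay lower in each ΔTFR5 library, with a log2 fold change of -1.77 ± 0.27 (SE, adjusted p = 0.00251). HSPH1, a co-chaperone of HSP70, fell by 1.08. Of 18 antioxidant genes regulated by NRF2, 8 fell and 0 rose, with a median of -0.70; NQO1, a quinone reductase, fell by 1.08, GCLM, a subunit of the enzyme that starts glutathione synthesis, by 1.29, and TXNRD1, a thioredoxin reductase, by 0.92. Of 23 genes of cholesterol synthesis, 9 fell and 0 rose. IDI1, an isomerase of the isoprenoid pathway, was at 60.0, 61.8 and 57.5 CPM against 25.7, 25.1 and 28.9 CPM, a log2 fold change of -1.17 ± 0.14 (adjusted p = 0.000906). In IDI1 both groups were tight and did not overlap. Of 30 interferon response genes, 10 fell and 1 rose, with a median of -0.56; OASL fell by 1.35 and IFI6 by 1.26, and ISG20, an exonuclease, was the riser. Of 31 proteasome genes 8 fell and 0 rose, of 25 splicing factors 9 fell and 0 rose, and of 26 ribosome biogenesis genes 6 fell and 0 rose. At an unadjusted p under 0.05, 1 antioxidant gene, 1 cholesterol gene and 0 heat shock, proteasome, splicing or ribosome biogenesis genes were higher, beside 13.9% of all tested genes. DESeq2, at 7.81% of all tested genes higher, called 1 antioxidant gene higher and 0 in the other 5 of these lists. With limma voom, at 24.1% of all tested genes higher, 1 antioxidant gene and 3 cholesterol genes were called higher. Left-out libraries brought the heat shock count to between 4 and 5, the antioxidant count to between 3 and 7, the cholesterol count to between 3 and 8 and the interferon count to between 2 and 8, with the higher end without ΔTFR5 replicate 3. The proteasome count lay between 2 and 9 and the ribosome biogenesis count between 1 and 3. The splicing count was 0 without empty vector replicate 3, ΔTFR5 replicate 1 or ΔTFR5 replicate 2. Over all genes in these fits, the number called lower lay between 136 of 19394 tested and 814 of 19483.

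**Figure D3:**
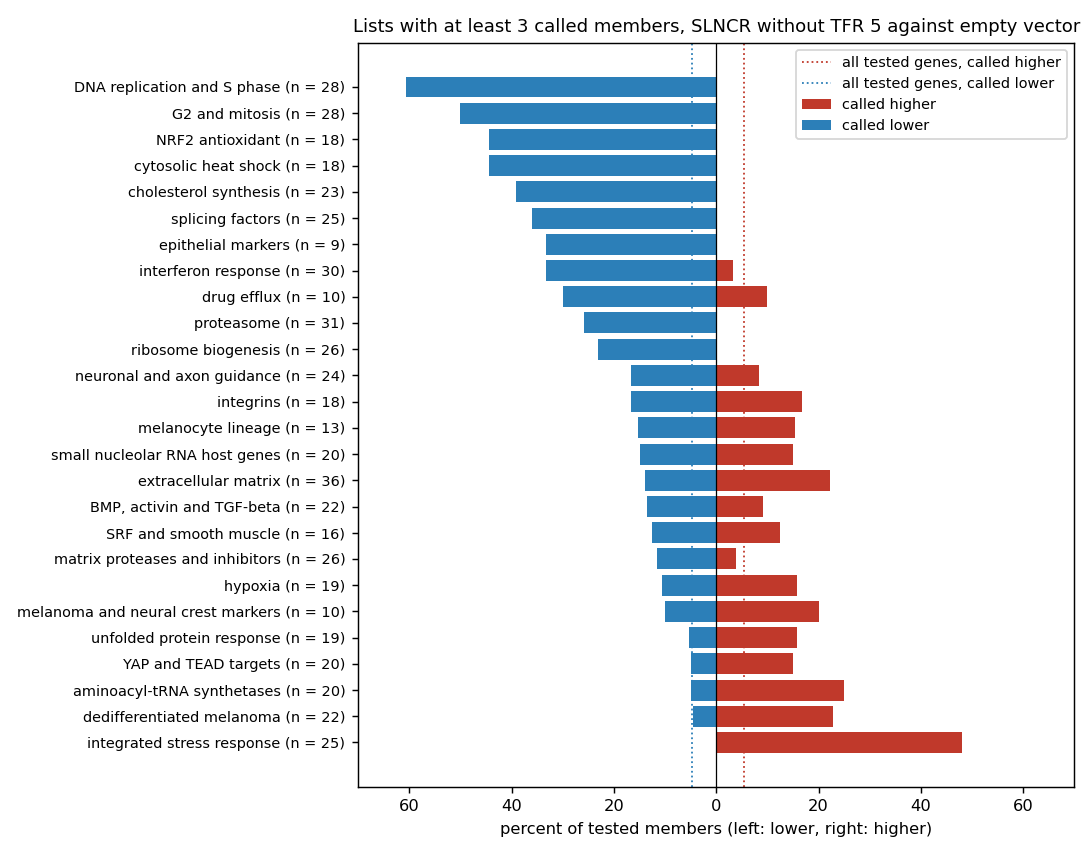
Percent of tested members called higher (right, red) and lower (left, blue) in ΔTFR5 against empty vector, for the 26 gene lists with at least 3 called members; dotted lines mark the 5.48% and 4.68% of all tested genes. Replication, mitosis, antioxidant and heat shock lists reach furthest to the left, and the integrated stress response furthest to the right.

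Extracellular matrix genes moved both ways. Of 36 tested, 8 rose and 5 fell, with a median of 0.03. For this and the other lists below, the shares over all tested genes were 5.48% higher and 4.68% lower. FN1 encodes fibronectin, a large adhesive glycoprotein (ENSG00000115414, chr2:215360440-215436172), and was at 43.5, 48.6 and 41.3 CPM in empty vector and at 153, 145 and 177 CPM in ΔTFR5. The groups were far apart, with a log2 fold change of 1.83 ± 0.14 (SE, adjusted p = 2.58e-05). TNC, the matrix glycoprotein tenascin C, rose from 307, 313 and 295 CPM to 529, 560.5 and 529 CPM, a log2 fold change of 0.82. THBS1 and SPP1, given above, were among those that fell. Of 18 integrins, 3 rose and 3 fell; ITGA10, a collagen receptor chain, rose by a log2 fold change of 1.29, and ITGB4 and ITGB8 by 0.69 and 0.67. ITGB6, the beta chain of an epithelial integrin, was at 0.62, 0.81 and 0.11 CPM in empty vector and at 0, 0.04 and 0 CPM in ΔTFR5. It was called lower, with a fitted log2 fold change of -4.95 (adjusted p = 0.0166) that depends on the prior count. Its empty vector replicate 3 lay far below replicates 1 and 2, the pattern of the epithelial transcripts KRT19 and CDH1 given below. The other integrins that fell were ITGB7, by 0.80 on the log2 scale, and ITGA4, by 0.55. Of the 22 genes that mark the dedifferentiated state of melanoma, 5 rose and 1 fell; NT5E, the ectonucleotidase CD73, rose by a log2 fold change of 0.95, while NRG1, a ligand of ERBB receptors, fell by 0.65. Of 10 drug efflux transporters, 1 rose and 3 fell. ABCC3 rose by a log2 fold change of 1.22, ABCB1, which encodes P-glycoprotein, fell by 1.48, and ABCG2 fell by 1.45. Of 10 melanoma and neural crest markers, 2 rose and 1 fell, and of 13 genes of the melanocyte lineage, 2 rose and 2 fell. S100A1, a calcium-binding protein, and MIA, a secreted melanoma protein, rose by a log2 fold change of 1.00 and 0.50, and TYRP1, a melanosome enzyme, and ERBB3, a receptor of the EGF receptor family, by 1.80 and 0.78. SOX10 and CDK2 were the members of the melanocyte list that fell, and SOX10 is on both lists. SOX10, the neural crest transcription factor, fell from 68.9, 75.1 and 77.9 CPM to 51.0, 57.0 and 51.0 CPM, a log2 fold change of -0.48 (adjusted p = 0.0187).

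Other lists held few called members. Of 31 nuclear genes of oxidative phosphorylation and 13 mitochondrially encoded genes, 0 were called by edgeR. At an unadjusted p under 0.05, 3 of the nuclear genes were lower, beside 12.5% of all tested genes. Of the mitochondrially encoded genes, 5 were higher at that threshold, beside 13.9% of all tested genes. Their median log2 fold change was 0.51, with 11 above 0 and 2 below. DESeq2 called 0 of the 31 nuclear and 13 mitochondrially encoded genes. Over both of these lists together, limma voom called 14 lower and 7 higher, beside 47.2% of all tested genes called in either direction. Of 29 immediate-early genes 1 rose, of 23 p53 targets 2 rose, and of 78 cytosolic ribosomal proteins 1 rose and 1 fell. Over all tested genes, 5.48% were called higher and 4.68% lower. EGR1, an immediate-early transcription factor linked with SLNCR, was at 23.6, 25.8 and 18.3 CPM in empty vector and at 230, 434 and 23.4 CPM in ΔTFR5. Replicates 1 and 2 were high and replicate 3 lay within the range of empty vector, and the log2 fold change of 3.34 ± 1.04 (SE) did not pass (adjusted p = 0.0726). Among other genes linked with SLNCR in the literature, CDKN1A, a cell cycle inhibitor, had a log2 fold change of -0.03 (adjusted p = 0.942), and POU4F1, a neural crest transcription factor, of -0.47 (0.256). MMP9, a matrix protease, did not reach the count minimum for testing.

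**Figure D4:**
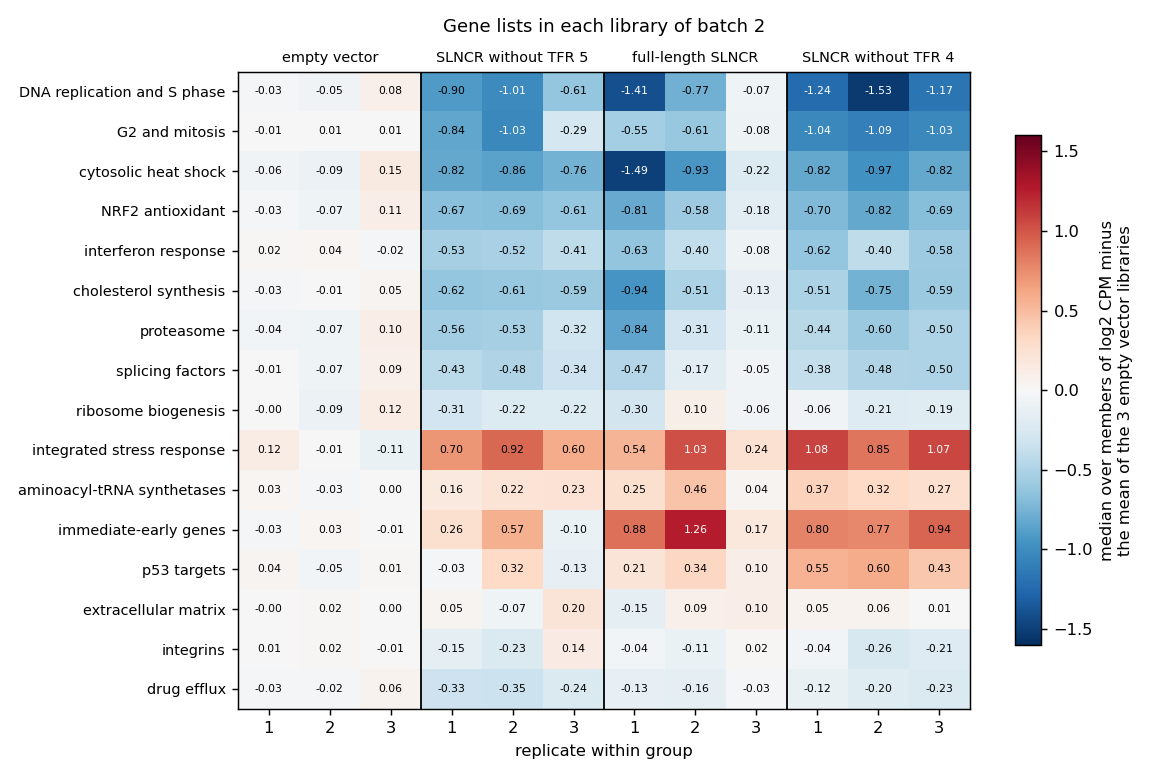
Median over the members of 16 gene lists of log2 CPM minus the mean of the 3 empty vector libraries, for each library of batch 2 (columns, by group and replicate). The S phase list reads -0.90, -1.01 and -0.61 in ΔTFR5, and full-length SLNCR replicate 3 lies near 0 in most lists.

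Compared directly with FL, ΔTFR5 differed in 259 genes, 155 higher and 104 lower, or 1.38% of those tested; rises were 59.8% of these calls, 71.0% with upper quartile scaling and 44.6% with the GC trend removed. Compared with ΔTFR4 it differed in 85 genes, 67 higher and 18 lower, or 0.453%. Each of FL and ΔTFR4 was also set against the same empty vector libraries, where 217 genes (1.16%) and 4489 genes (23.9%) were called; these comparisons share their controls, so only the direct differences are read here. ERBB3 was higher in ΔTFR5 than in FL by 1.44 on the log2 scale (adjusted p = 0.000855) and than in ΔTFR4 by 1.25 (adjusted p = 0.000294), beside 0.78 over empty vector. ABCB1 was lower in ΔTFR5, with a log2 fold change of -2.10 from FL (adjusted p = 0.00087) and of -1.30 from ΔTFR4 (adjusted p = 0.0131). ABCB1 stood at 5.23, 4.30 and 3.71 CPM in empty vector and at 1.47, 1.89 and 1.39 CPM in ΔTFR5, the lowest of the 4 groups. FN1 was higher in ΔTFR5 than in FL by 0.91 (adjusted p = 0.0108) and than in ΔTFR4 by 0.86 (adjusted p = 0.0108), and RPS6KA2 by 0.92 (0.00863) and 1.00 (0.00277). SOX11 was higher than in ΔTFR4 by 1.06 (adjusted p = 0.00816), while 0.63 over FL did not pass (0.0651). S100A1 was higher than in FL by 1.12 and than in ΔTFR4 by 2.495. For ERBB3, ABCB1, FN1, RPS6KA2 and S100A1 the level in ΔTFR5 passed the test against each of the 3 other groups of batch 2.

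Further genes passed against FL and not against ΔTFR4; whether these differences differ from each other was not tested. THBS1 had a log2 fold change of -1.28 from FL (adjusted p = 0.000855) and of -0.12 from ΔTFR4 (0.79). BGN was higher than in FL by 1.23 (adjusted p = 0.017), TIE1 by 1.20 (0.0133), DYSF by 1.14 (0.0387) and THSD4 by 0.86 (0.00323). KITLG and BCYRN1 had log2 fold changes of -1.52 (adjusted p = 0.0216) and -0.91 (0.0435) from FL. RRM2 had a log2 fold change of -1.12 from FL (adjusted p = 0.0408) and of 0.66 from ΔTFR4 (0.39). TXNIP, DDIT3 and HSP90AA1 did not pass against either of FL and ΔTFR4. The 259 calls against FL lay between 19, without ΔTFR5 replicate 2, and 3480, without FL replicate 3, and were 1 when only those groups were fitted. The 85 calls against ΔTFR4 lay between 39, without ΔTFR4 replicate 1 or 2, and 62.

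Some transcripts separated libraries within a group. Empty vector replicates 1 and 2 held epithelial transcripts at levels far above those of replicate 3 and of the ΔTFR5 libraries. KRT19, a keratin, was at 5.85, 5.85 and 0.15 CPM in empty vector and at 0.20, 0 and 0.08 CPM in ΔTFR5, and CDH1, the epithelial cadherin, was at 3.98, 5.01 and 0.68 CPM in empty vector. Both were called lower in ΔTFR5, with log2 fold changes of -5.41 and -3.17, and KRT19 of empty vector replicate 3 lay within the range of ΔTFR5. GABRP and CYP24A1, a receptor subunit and a vitamin D hydroxylase among the largest falls, followed the same pattern, with CYP24A1 at 11.2, 13.05 and 4.24 CPM in empty vector and at 1.39, 1.28 and 2.33 CPM in ΔTFR5. Over the alternatives run, the log2 fold change of GABRP lay between -3.05 and -0.67 and that of CYP24A1 between -2.86 and -1.35. The part of these transcripts in the other differences was not tested; with empty vector replicate 3 as the only control, an alternative added after the data were seen, 14 genes were called and 10 of the 120 named genes tested there kept their call. These were BGN, THSD4, RPS6KA2, TIE1, FN1, SOX11, MUC6, BCYRN1, THBS1 and CA9.

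ΔTFR5 replicate 3 also stood apart. Of 29 genes with a wide spread in ΔTFR5, 21 were farthest in replicate 3, and 18 of those were lowest there. MT-RNR2, a mitochondrial ribosomal RNA, was at 148, 178 and 1.96 CPM in ΔTFR5 replicates 1 to 3, and RNY3, a small Y RNA, was at 21.8, 31.7 and 2.86 CPM. The cancer-testis antigen gene CTAG1B, which has a near-identical copy, was at 2.58, 3.14 and 37.7 CPM. SLNCR, TXNIP and EGR1 were lowest in the same library, as given above. Its part in the other results was not tested.

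**Figure D5:**
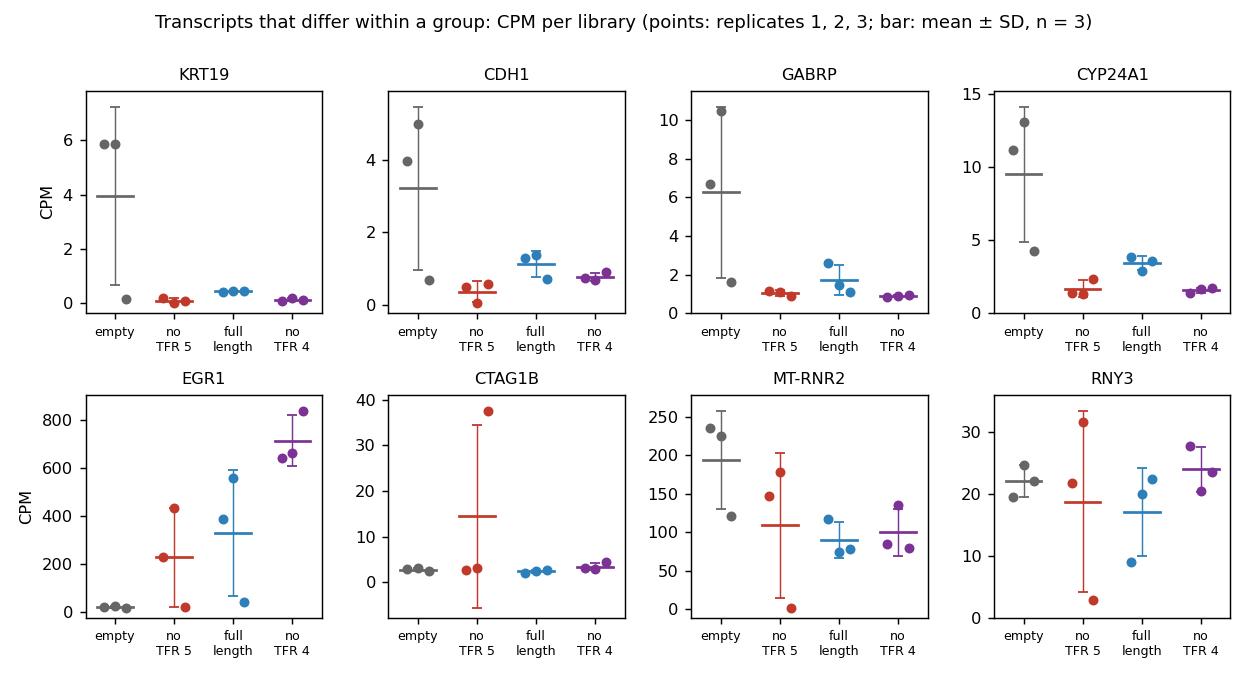
CPM of 8 transcripts in each library of batch 2, 1 point per replicate, with the mean and SD (n = 3) as bars. KRT19 and CDH1 are high in 2 of the 3 empty vector libraries, and ΔTFR5 replicate 3 is the odd library for CTAG1B, MT-RNR2 and RNY3.

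Batch 1 had its own empty vector, its own FL and 2 other deletions, ΔTFR1 and ΔTFR2, and was fitted apart from batch 2. There SLNCR, under LINC00673, rose from 20.1 ± 1.04 CPM (SD, n = 3) in empty vector to means of 208 CPM in FL, 198 CPM in ΔTFR1 and 195 CPM in ΔTFR2. Of the 121 named genes other than SLNCR that were called in ΔTFR5, 105 were tested in batch 1. In FL against empty vector of batch 1, 8 of these were called in the direction seen in ΔTFR5 and 8 in the other, beside 22.7% of all genes called. KITLG, which fell in ΔTFR5, rose there by a log2 fold change of 0.52 (adjusted p = 0.00718), while CDC20 fell by 0.26. Of the 105 genes, 0 were called in ΔTFR1 or ΔTFR2 by edgeR or DESeq2, 1 and 8 had an unadjusted p under 0.05, beside 4.12% and 4.17% of all genes, and 0.00699% and 0.014% of all genes were called. Across these 105 genes the largest absolute log2 fold change in batch 1 was 0.53 in FL, 0.62 in ΔTFR1 and 0.83 in ΔTFR2. The batches differ in control libraries, depth and counting, and the difference between them was not tested.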

How the data were processed

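RNA-seq of A375 cells came as 2 tables. For batch 2 the authors deposited each estimated count per gene as made by salmon, as the table's name and fractional values show, for 60221 genes in 12 libraries; 83.66% of the values are whole within 0.01. For batch 1 the authors deposited the raw counts of reads per gene. Per the labels, RNA was depleted of ribosomal RNA and read as pairs of 150 bp. Per the submitters' processing notes, the tools were STAR 2.7.3a, Subread 1.6.2 with its featureCounts, cutadapt 2.5, DESeq2 1.24.0 and FastQC 0.11.5, and the builds GRCh38 and GRCm38, with no role stated. For salmon, its version, annotation and strand setting were not given in the sources used here, so overlapping and antisense genes cannot be told apart. Salmon spreads reads over near-identical copies.

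Estimated counts were rounded and genes kept by filterByExpr (minimum count 10, minimum total 15), leaving 18763. TMM scaling and robust quasi-likelihood fits of edgeR 4.0.16 (R 4.3.3) covered all 12 libraries of batch 2 with 1 coefficient per group and no covariate; p-values were adjusted by Benjamini-Hochberg over all tested genes, and those with an adjusted p under 0.05 are the called genes. CPM use TMM library sizes, and SE is the log2 fold change over the root of F. All 12 columns of each table were matched to samples, with 0 left over, and no pair of replicates agreed within sampling noise. GC content and positions came from GENCODE 29 (GRCh38), promoters from RefSeq (GRCh38.p14). On simulated counts of 18343 genes, edgeR recovered 107 of 200 changes of 2-fold in the ΔTFR5 and empty vector comparison, with 5 false calls. The simulation gave each gene the same dispersion in all groups, while FL varied more than the other groups in the data. These figures therefore do not give the recovery or the false calls of the real comparison. Alternatives were other scalings and filters, DESeq2 1.42.0, limma 3.58.1 voom, fits of 2 groups, a replicate block, removal of the GC trend and left-out libraries.

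Members and gene lists were chosen with earlier results of these data known. Named genes were SLNCR and the genes linked with it; the 12 largest rises and the 12 largest falls that passed, where mean log2 CPM was 1 or more and groups did not overlap; the 10 lowest adjusted p; for each of 43 lists with at least 3 called members, the 4 with the lowest adjusted p; and the 12 genes of widest spread in ΔTFR5. Called genes named outside these rules (ISG20, for example) were picked after their values were seen.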

Additional observations from a re-analysis of the deposited data

How the results depend on the processing

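The 1907 calls of ΔTFR5 against empty vector became 2952 with DESeq2, 8857 with limma voom, 5635 with the 2 groups alone, 3301 with the GC trend removed and 3547 with that and the replicate block. They lay between 440 and 1746 with 1 library of these 2 groups left out. Added after seeing the data, the count was 4600 without FL replicate 1, 6214 without the FL group and 14 with empty vector replicate 3 as the only control. The 26 lists with at least 3 called members became 40 with voom, 7 to 36 with a library left out and 1 with the single control. The 259 calls against FL became 486 with no filter, 1459 with DESeq2, 3463 with voom, 1 with 2 groups alone, 170 with the replicate block, 865 with the GC trend removed and 761 with both, and 19 to 3480 with a library left out (3480 without FL replicate 3, 596 without FL replicate 1). The 85 calls against ΔTFR4 became 141 with no filter, 239 with DESeq2, 3394 with voom, 1106 with 2 groups alone, 130 with the block and GC trend removal, and 39 to 62 with a library left out. The 8 named genes of batch 1 became 4 with the 2 groups alone and 1 to 10 with a library left out. The causes were not tested. SLNCR stayed called in every alternative, with a log2 fold change of 3.14 to 3.58. Of the 121 other named called genes, 49 were called in every alternative but the single control, and none changed sign. Of the same genes, 118 were still called with the replicate block.

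Same-numbered empty vector and ΔTFR5 libraries correlated at -0.029, -0.053 and -0.026 in their deviations, and FL and ΔTFR5 libraries at 0.047, 0.197 and 0.085, so not every pair was over 0.1 and the numbers were not taken to pair the samples; the replicate block gave 2065 calls. A depth of 24810226 estimated counts or more limits genes below about 1 CPM, where 1 library can decide a call.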

Other observations

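A group of genes active in neural crest and mesenchymal cells separated ΔTFR5 from all 3 other groups of batch 2; these genes were picked after their values were seen, so no count over them carries weight. TNFRSF19, a receptor of the tumour necrosis factor family, was at 2.99, 2.89 and 1.93 CPM in empty vector and at 7.95, 5.88 and 6.78 CPM in ΔTFR5. The groups did not overlap. The log2 fold change of ΔTFR5 was 1.40 over empty vector (adjusted p = 0.0047), 2.19 over FL (0.00198) and 3.79 over ΔTFR4 (1.67e-05). HMCN1, which encodes the matrix protein hemicentin, was at 3.24, 3.07 and 3.18 CPM against 8.35, 7.98 and 8.17 CPM, with log2 differences of 1.37, 2.04 and 2.69 from empty vector, FL and ΔTFR4. PRRX1, a mesenchymal homeobox factor, differed by 1.01, 1.35 and 1.48, and SERPINF1, which encodes a secreted inhibitor of vessel growth, by 2.06, 1.71 and 3.08. SDC3, a cell surface proteoglycan, differed by 1.13, 1.67 and 1.21, and SOX5, a transcription factor of the neural crest, by 0.74, 1.49 and 3.11. All of these passed the test of edgeR in each of the 3 comparisons, which are not independent since they share the ΔTFR5 libraries. SERPINA3, a protease inhibitor, differed by 5.94 from ΔTFR4 (adjusted p = 5.32e-07) while its 0.49 over empty vector did not pass (0.163).

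Other genes went down or differed between the deletions. DKK1, a secreted inhibitor of WNT signalling, was at 132, 128 and 131 CPM in empty vector and at 66.4, 60.1 and 64.1 CPM in ΔTFR5. Both groups were tight, and the log2 difference of ΔTFR5 was -1.04 ± 0.10 (SE) from empty vector, -0.80 from FL and -0.63 from ΔTFR4 (adjusted p = 0.000205, 0.00323 and 0.0108). CTNND2, which encodes a neuronal catenin, had log2 differences of -1.37 from empty vector and -1.25 from ΔTFR4, which passed, and -0.07 from FL (adjusted p = 0.838). HTRA1, a secreted serine protease, had log2 differences of 1.35 from empty vector and -0.86 from ΔTFR4, both of which passed. MUC2, a gel-forming mucin, had log2 differences of 2.10 from empty vector and -1.67 from ΔTFR4, which passed. Empty vector replicates 1 and 2 also held MUC5AC, another gel-forming mucin, at 22.8 and 25.1 CPM, beside 0.72 CPM in replicate 3 and 0.87, 0.32 and 0.75 CPM in ΔTFR5.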
